A study of Mus musculus with 16 samples.

Results

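Interferon-stimulated genes and the immunity GTPases were examined in RNA-seq counts from 4 sorted populations of mouse medullary thymic epithelial cells. The list names 42 mouse genes by their known role as interferon receptors, the transcription factors downstream of them, and antiviral or antimicrobial targets. Of these, 40 were matched by gene symbol to an Ensembl identifier among the 43432 genes in every library. Gbp5 and Gbp6 were not analysed here. All 40 matched genes passed the filter on low counts, which left 19617 genes for testing.

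The cells came from C57BL6 mice of both sexes, aged 5 to 6 weeks, whose cells held both Aire-CreERT2 and the Ai14 reporter. All mice were given 2 mg tamoxifen and the thymi were taken 7 days later. Aire-CreERT2 is a Cre recombinase that acts only with tamoxifen and is driven by Aire, the regulator of tissue antigen expression in these cells, and Ai14 makes a red fluorescent protein (RFP) permanently once Cre has cut. RFP therefore marks cells in which Cre acted around the tamoxifen pulse, and cells that had Aire but escaped recombination stay RFP-. Live CD45- EPCAM+ cells were sorted by RFP and by the level of MHC class II into RFP+ MHCIIlo, RFP- MHCIIlo, RFP+ MHCIIhi and RFP- MHCIIhi cells, with 4 libraries of each, and each replicate pooled 12 thymi. The comparison of RFP+ with RFP- cells asks how descendants of Aire-expressing cells differ from unlabelled cells of the same gate, and the comparison of MHCIIlo with MHCIIhi cells asks how the 2 gates differ within a label.

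Library totals were 7.93 to 19.46 M counts. RFP+ MHCIIlo libraries were made from 19400 to 20500 cells each and RFP- MHCIIlo libraries from 80500 to 102800, while MHCIIhi libraries came from at least 114000 cells. RFP+ MHCIIlo libraries were less alike than those of the other populations (Pearson correlation across genes of log2 CPM, the read counts scaled to a common library size by TMM, 0.9495 to 0.9674, against 0.9738 to 0.9905 within the others), and RFP+ MHCIIlo replicates 1 and 4 had stood apart in an earlier analysis, so counts that rest on them are also given without them. The 7 medullary epithelial markers were all detected in each population. Aire itself was at 543 to 622 CPM in RFP+ MHCIIhi libraries and at 916 to 1041 CPM in RFP- MHCIIhi libraries, so its RNA was present in unlabelled MHCIIhi cells.

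Interferons are secreted proteins that bind paired receptor chains: alpha and beta interferons bind Ifnar1 and Ifnar2, gamma interferon binds Ifngr1 and Ifngr2, and lambda interferons bind Ifnlr1 with Il10rb. The receptors act through Janus kinases on STAT proteins. A complex that contains Stat2 and Irf9 binds interferon-stimulated response elements (ISRE), whereas gamma interferon acts mainly through gamma-activated sites (GAS). Target genes include the Ifit and Oas families, which recognise or act on foreign RNA, and 2 families of interferon-inducible GTPases, the immunity-related GTPases (IRG) and the guanylate-binding proteins (GBP), which attack the vacuoles of intracellular microbes. Mouse medullary thymic epithelial cells are known to transcribe interferon genes without infection.

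Promoter sequences are shown first because the list is made of genes known to answer to interferon. RefSeq promoters (GRCm38.p6, 250 bases before to 50 after the start) were held for 31 of the 40 genes, and Usp18, Zbp1, Dhx58, Oas2, Mx1, Mx2, Ifi27, Rtp4 and Iigp1 had no entry. On either strand, the letters GAAA, any 2 bases, and GAAA again (ISRE-like, and TTTC, 2 bases, TTTC where the match lies on the other strand) were present in 17 of 31 genes (54.8%), against 3.99% of the 27025 genes with a promoter entry. The letters TTCNNNGAA (GAS-like) were present in 11 of 31 genes (35.5%), against 9.55% of all genes. A match is a description of the letters in this window and shows no binding.

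The stretches below lie before the RefSeq start, are written 5′ to 3′ along the strand of the gene, and carry ISRE-like and GAS-like letters in capitals. Isg15, Ifit1, Ifit3 and Ifit3b are shown as type I interferon targets with repeated ISRE-like letters, and Bst2 and Oas1a as genes with both motifs. Irf1 is shown as the factor with GAS-like letters alone, Igtp, Irgm2 and Tgtp1 for their shared layout, and Gbp2, Gbp3 and Gbp7 for the ISRE-like letters of that family.
Isg15, chr4:156200860-156200911, minus strand: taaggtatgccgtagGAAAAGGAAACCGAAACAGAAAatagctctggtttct
Ifit1, chr19:34640770-34640828, plus strand: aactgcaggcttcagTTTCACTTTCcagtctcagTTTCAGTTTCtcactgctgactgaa
Ifit3, chr19:34583358-34583431, plus strand: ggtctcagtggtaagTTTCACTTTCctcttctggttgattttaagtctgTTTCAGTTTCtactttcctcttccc
Ifit3b, chr19:34607754-34607827, plus strand: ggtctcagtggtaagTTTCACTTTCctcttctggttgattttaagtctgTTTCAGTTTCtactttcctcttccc
Oas1a, chr5:120907526-120907638, minus strand: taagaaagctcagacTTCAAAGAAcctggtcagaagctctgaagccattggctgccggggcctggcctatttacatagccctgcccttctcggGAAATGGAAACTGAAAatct
Bst2, chr8:71537572-71537623, minus strand: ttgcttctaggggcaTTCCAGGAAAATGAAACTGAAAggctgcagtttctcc
Irf1, chr11:53769909-53769947, plus strand: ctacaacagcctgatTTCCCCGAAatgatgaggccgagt
Igtp, chr11:58199496-58199546, plus strand: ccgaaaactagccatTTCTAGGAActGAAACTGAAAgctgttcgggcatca
Irgm2, chr11:58214887-58214937, plus strand: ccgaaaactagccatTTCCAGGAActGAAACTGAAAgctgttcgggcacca
Tgtp1, chr11:48992299-48992349, minus strand: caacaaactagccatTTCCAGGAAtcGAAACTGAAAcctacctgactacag
Gbp2, chr3:142620589-142620628, plus strand: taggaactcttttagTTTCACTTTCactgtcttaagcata
Gbp3, chr3:142559984-142560029, plus strand: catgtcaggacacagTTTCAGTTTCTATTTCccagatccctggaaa
Gbp7, chr3:142530215-142530307, plus strand: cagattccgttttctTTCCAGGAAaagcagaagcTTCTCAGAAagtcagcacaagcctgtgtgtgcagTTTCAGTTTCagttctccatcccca

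In Isg15 the ISRE-like letters recur 3 times in an overlapping run, and in Bst2 the GAS-like match runs into the first of 2 ISRE-like matches. The stretches of Ifit3 and Ifit3b were identical over 74 bases. Igtp and Irgm2 had 49 of 51 bases in common, and both, like Tgtp1, held the GAS-like letters followed by ISRE-like letters with 2 bases between them. Igtp had 34 of 51 bases in common with Tgtp1, and Irgm2 had 36. All 4 IRG genes and all 3 GBP genes with a promoter entry had an ISRE-like match, against 3.99% of all genes. The matches of Igtp and Irgm2, whose stretches are nearly the same, are not separate observations. None of the 4 receptor genes had an ISRE-like match, which is near the share of 3.99% over all genes. GAS-like letters were present in 2 of the 4, Ifnar1 and Ifnar2, against 9.55% of all genes.

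**Figure D1:**
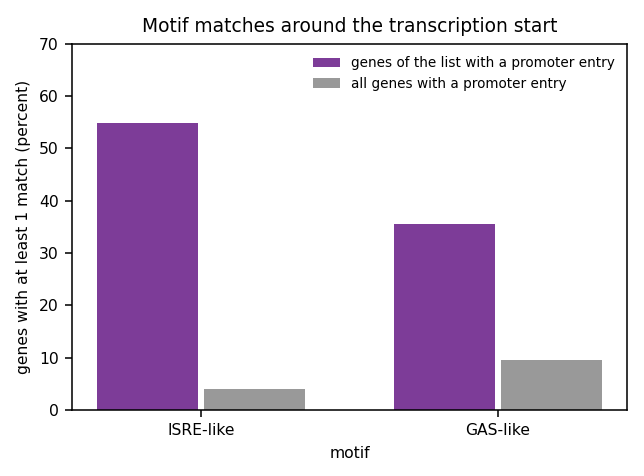
Share of genes, in percent, with at least 1 ISRE-like or GAS-like match between 250 bases before and 50 after the RefSeq start, for the 31 genes of the list with a promoter entry (purple) and all 27025 genes with one (grey). The list stands at 54.8% against 3.99% for ISRE-like letters and at 35.5% against 9.55% for GAS-like letters.

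Most genes of the list were at their highest level in RFP- MHCIIlo cells. The mean CPM was highest there for 31 of the 40 genes, where 26.6% of all tested genes had their highest mean. RFP+ MHCIIhi cells were highest for Irf1, Usp18, Ifit1, Oasl1 and Igtp, RFP- MHCIIhi cells for Ifngr2, Ifit2 and Rsad2, and RFP+ MHCIIlo cells for Ifi27. The summed CPM of the 40 genes was 1921 to 2130 in RFP+ MHCIIlo libraries, 3398 to 3927 in RFP- MHCIIlo libraries, 2185 to 2354 in RFP+ MHCIIhi libraries and 1654 to 1767 in RFP- MHCIIhi libraries, so the RFP- MHCIIlo libraries stood above all others and the RFP- MHCIIhi libraries below all others. In bulk samples, fewer cells of a type and less RNA per cell cannot be told apart.

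**Figure D2:**
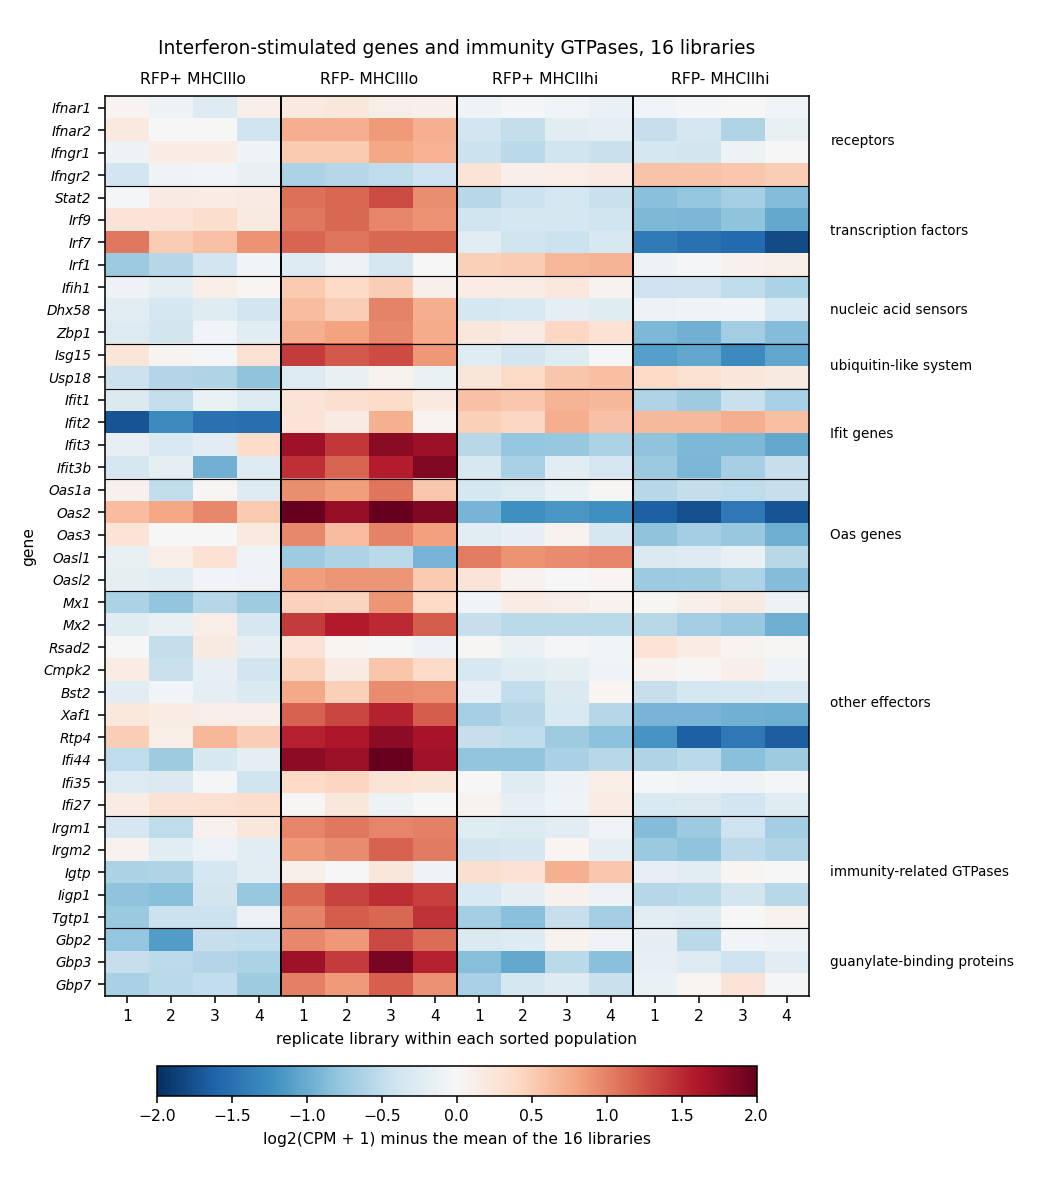
Level of each of the 40 genes (lines, grouped by role) in each of the 16 libraries (columns, 4 per population), as log2(CPM + 1) minus the mean over the 16 libraries; red is above and blue below that mean, and colours saturate at 2 in either direction. The RFP- MHCIIlo block is red for most genes, and is pale or blue for Irf1, Usp18, Oasl1, Rsad2, Ifi27, Igtp and Ifngr2.

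Against RFP- MHCIIlo cells, RFP+ MHCIIlo cells had 35 of the 40 genes lower and 3 higher by edgeR's quasi-likelihood test with Benjamini-Hochberg adjustment over all tested genes and a threshold of 0.05. The background over all tested genes was 22.7% lower and 28.9% higher, or 51.6% in either direction. The median log2 difference was -1.03 over the 40 genes, against 0.07 over all genes. The 3 that rose were Oasl1, Ifngr2 and Ifi27, and the other two, Irf1 and Rsad2, did not pass the test. The libraries of the 2 populations did not overlap for 33 genes lower and 2 genes higher, against 18.0% and 21.5% of all genes. Without RFP+ MHCIIlo replicates 1 and 4, 36 genes were lower and 3 higher.

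In the MHCIIhi gate the direction was largely the other way. RFP+ MHCIIhi cells had 20 of the 40 genes higher and 5 lower than RFP- MHCIIhi cells, against a background of 23.8% higher and 21.2% lower, or 45.0% in either direction. The median log2 difference was 0.32, against -0.02 over all genes. Those that fell were Ifngr1, Ifngr2, Tgtp1, Gbp3 and Gbp7, and 15 genes did not pass. A share of 5 in 40 is below the background of 21.2% lower. The libraries did not overlap for 22 genes higher and 6 lower, against 25.0% and 25.0% of all genes.

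**Figure D3:**
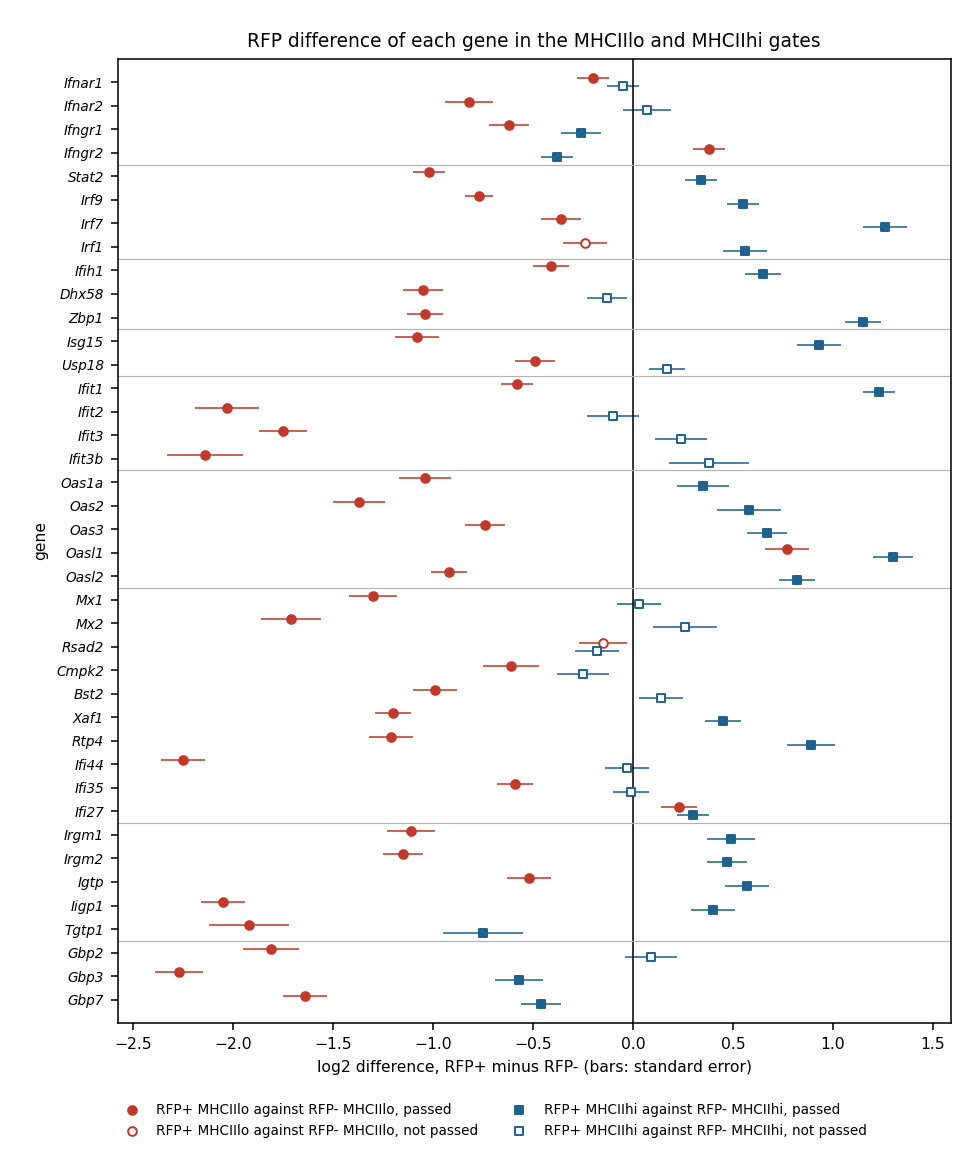
Log2 difference between RFP+ and RFP- cells for each of the 40 genes in the MHCIIlo gate (red circles) and the MHCIIhi gate (blue squares), with standard errors; filled symbols passed the threshold of 0.05 (edgeR, Benjamini-Hochberg) and open ones did not. Red symbols lie left of 0 for 37 of 40 genes and blue ones right of 0 for 28.

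The difference between these differences was itself tested. The RFP difference in MHCIIlo cells was lower than that in MHCIIhi cells for 35 of the 40 genes and higher for 1, Ifngr2, against a background of 16.6% lower and 17.5% higher, or 34.1% in either direction. The median was -1.38, against 0.04 over all genes. Ifnar1, Rsad2, Cmpk2 and Ifi27 did not pass. Without RFP+ MHCIIlo replicates 1 and 4, 35 were again lower and 1 higher, with a median of -1.40. Ifit3b had the largest of these values at -2.52 ± 0.28 (SE, edgeR adjusted p = 2.2e-07), followed by Iigp1 at -2.45 ± 0.15 (SE, edgeR adjusted p = 3.9e-11).

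Within the RFP+ label, the shares of the list that differed between gates were near those of all genes in both directions. RFP+ MHCIIlo cells had 13 genes higher and 12 lower than RFP+ MHCIIhi cells, with a median log2 difference of 0.03 (0.01 over all genes), against a background of 27.5% higher and 28.1% lower, or 55.6% in either direction. Without RFP+ MHCIIlo replicates 1 and 4, 11 were higher and 11 lower. Among RFP- cells, the MHCIIlo population had 33 genes higher and 4 lower than the MHCIIhi population, with a median of 1.37 (0.00 over all genes), against a background of 33.5% higher and 35.6% lower, or 69.1% in either direction. The 4 that were lower were Ifngr2, Usp18, Ifit2 and Oasl1. The comparisons of the gates use the same libraries as those of the label, so the 4 sets of differences are not independent of each other.

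The interferon genes themselves were low. The 4 that passed the filter on low counts had most of their reads in the MHCIIhi gate and passed through that gate. Ifnb1, which encodes beta interferon, had 0, 0, 0 and 0 CPM in RFP+ MHCIIlo libraries, against 0.106, 0, 0 and 0 CPM in RFP- MHCIIlo libraries. In the other gate it had 0.857, 0.817, 1.04 and 1.61 CPM in RFP+ MHCIIhi libraries, against 1.21, 1.16, 1.92 and 1.32 CPM in RFP- MHCIIhi libraries. Ifnb1 was therefore at 0 in every RFP+ MHCIIlo library, had 1 read in the 4 RFP- MHCIIlo libraries together, and was detected in every MHCIIhi library. Over the 4 pooled libraries this made 0 reads in RFP+ MHCIIlo cells against 67 in RFP+ MHCIIhi cells, which is at least 14-fold lower when 3 reads over the group are taken as the floor. Among RFP- cells there was 1 read in MHCIIlo cells against 92 in MHCIIhi cells, a 60.7-fold lower rate with an exact 95% interval of 10.6 to 2424 that covers counting error only. The difference between the MHCIIhi populations did not pass for Ifnb1, at a log2 difference of -0.36 ± 0.37 (SE, edgeR adjusted p = 0.46).

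Gamma and lambda interferon genes had the same layout across gates. Ifng had 0.324, 0.488, 0.208 and 0.0829 CPM in RFP+ MHCIIlo libraries, against 0.425, 0, 0 and 0 CPM in RFP- MHCIIlo libraries. In the other gate it had 3.2, 1.87, 2.8 and 3.65 CPM in RFP+ MHCIIhi libraries, against 1.99, 1.55, 1.61 and 1.09 CPM in RFP- MHCIIhi libraries. Every MHCIIlo library lay below every MHCIIhi library for Ifng, at a log2 difference of -3.42 ± 0.53 in RFP+ cells (SE, edgeR adjusted p = 8.8e-06) and -3.98 ± 0.66 in RFP- cells (edgeR adjusted p = 1.1e-05). Ifnl3, a lambda interferon gene, had 0, 0.488, 0.208 and 0.746 CPM in RFP+ MHCIIlo libraries, against 0, 0, 0.0853 and 0 CPM in RFP- MHCIIlo libraries. The other gate gave 1.87, 2.39, 2.47 and 2.39 CPM in RFP+ MHCIIhi libraries, against 0.974, 1.1, 1.3 and 0.574 CPM in RFP- MHCIIhi libraries. Here the RFP+ MHCIIhi libraries lay above the RFP- ones without overlap, at 1.22 ± 0.39 (SE, edgeR adjusted p = 0.014). Ifnl3 also passed between the MHCIIlo populations, on 15 reads in RFP+ and 1 read in RFP- cells. Of the 21 interferon genes listed, only Ifnb1, Ifnl2, Ifnl3 and Ifng passed the filter on low counts, and all 4 were lower in MHCIIlo than in MHCIIhi cells of either label. Their reads in MHCIIlo libraries were too few to pass, so the filter kept them through the MHCIIhi libraries. Their shared direction follows from that and is no separate result on interferon genes. The 14 Ifna genes together, Ifnab among them, had 20, 7, 38 and 54 reads in RFP+ MHCIIlo, RFP- MHCIIlo, RFP+ MHCIIhi and RFP- MHCIIhi cells. Over the pooled libraries this was 0.511, 0.157, 0.608 and 0.8 CPM. Ifnab alone gave 9, 2, 0 and 2 of these reads in the same order. Ifnk, which is not in the sum, had 6, 29, 21 and 24 reads. The low counts of Ifnab and Ifnk did not share the layout of the genes that passed the filter. Ifng is a product of T and NK cells, and thymocyte markers also moved between the populations: their summed CPM was 22.6 to 90.7 in RFP+ MHCIIlo, 21.3 to 44.4 in RFP- MHCIIlo, 74.2 to 126 in RFP+ MHCIIhi and 281 to 632 in RFP- MHCIIhi libraries. Their part in the Ifng values was not tested.

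**Figure D4:**
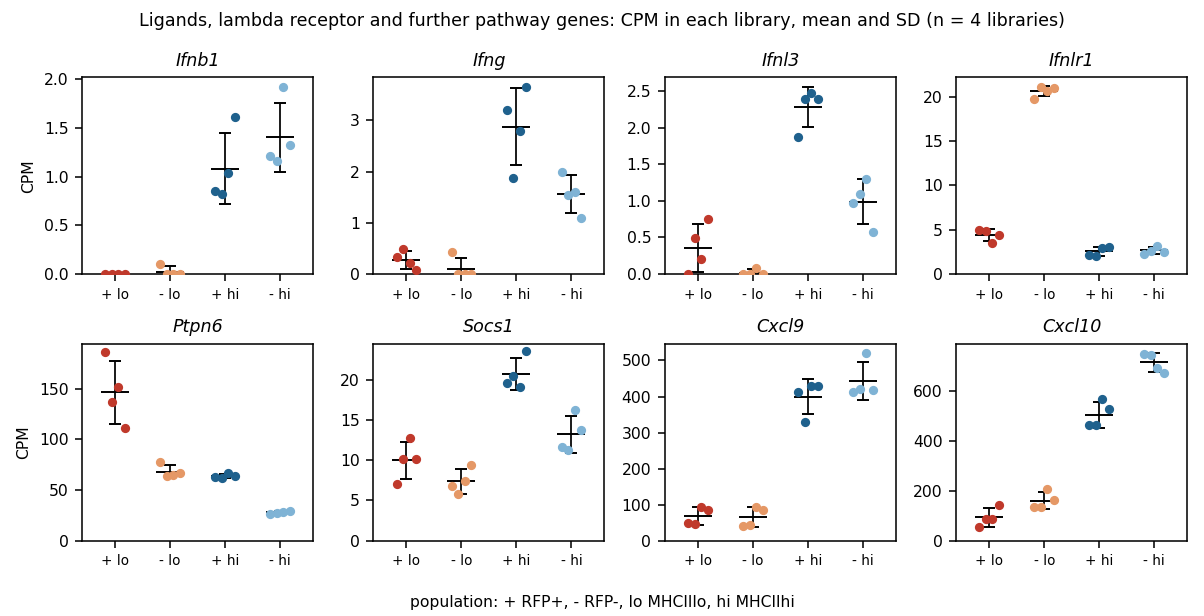
CPM of interferon genes, the lambda receptor chain Ifnlr1 and further pathway genes in each library (points), with mean and SD (bars, n = 4 libraries), for RFP+ MHCIIlo, RFP- MHCIIlo, RFP+ MHCIIhi and RFP- MHCIIhi cells from left to right. Ifnb1, Ifng, Ifnl3, Cxcl9 and Cxcl10 are highest in the MHCIIhi populations, and Ifnlr1 in RFP- MHCIIlo cells.

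Of the 4 receptor genes, Ifnar1, Ifnar2 and Ifngr1 had their highest mean in RFP- MHCIIlo cells, and Ifngr2 had its highest in RFP- MHCIIhi cells. Ifnar1 (ENSMUSG00000022967, chr16:91485238-91507441, plus strand) had 56.6, 50.8, 45.4 and 59.5 CPM in RFP+ MHCIIlo libraries, against 62.4, 63.7, 59 and 58.3 CPM in RFP- MHCIIlo libraries. In MHCIIhi cells there were 51.2, 52.8, 52.6 and 49.6 CPM in RFP+ MHCIIhi libraries, against 52.7, 53.6, 54.9 and 52.7 CPM in RFP- MHCIIhi libraries. The RFP+ MHCIIlo range overlapped that of every other population, and the RFP difference was -0.20 ± 0.08 in MHCIIlo cells (SE, edgeR adjusted p = 0.044) and -0.05 ± 0.08 in MHCIIhi cells (edgeR adjusted p = 0.62). Leaving out any of 7 single libraries ended the MHCIIlo call (RFP+ MHCIIlo replicates 2 and 3, RFP- MHCIIlo replicates 1, 2 and 3, RFP+ MHCIIhi replicate 3, RFP- MHCIIhi replicate 2), with values of -0.21 to -0.16. The MHCIIlo call was also lost at -0.20 without the filter on low counts and at -0.23 with the 2 populations fitted alone. Between gates the difference was 0.04 ± 0.08 in RFP+ cells (SE, edgeR adjusted p = 0.66) and 0.19 ± 0.08 in RFP- cells (edgeR adjusted p = 0.039), and the RFP- call was lost at 0.15 to 0.20 without any of 6 libraries (RFP- MHCIIlo replicates 1 and 2, each RFP- MHCIIhi replicate). The RFP- call was also lost at 0.07 to 0.16 with RLE or upper-quartile scaling, with DESeq2 and without the filter on low counts.

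Ifnar2 (ENSMUSG00000022971, chr16:91372783-91405589, plus strand), the chain that pairs with Ifnar1, was high in one population. Its values were 28, 24.5, 24.1 and 18.3 CPM in RFP+ MHCIIlo libraries, against 40.8, 41.1, 44.9 and 40.5 CPM in RFP- MHCIIlo libraries. Its values at high MHC class II were 18.4, 17.2, 20.9 and 21.4 CPM in RFP+ MHCIIhi libraries, against 17.4, 19, 15.8 and 21.8 CPM in RFP- MHCIIhi libraries. All 4 RFP- MHCIIlo libraries lay above the other 12. The RFP difference was -0.82 ± 0.12 in MHCIIlo cells (SE, edgeR adjusted p = 3.1e-06) and 0.07 ± 0.12 in MHCIIhi cells (edgeR adjusted p = 0.65). The gates differed by 0.28 ± 0.12 in RFP+ cells (SE, edgeR adjusted p = 0.054) and 1.17 ± 0.12 in RFP- cells (edgeR adjusted p = 5e-09), where the RFP+ difference passed at 0.39 without RFP+ MHCIIlo replicate 4 and at 0.32 without RFP+ MHCIIhi replicate 4.

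Of the gamma interferon receptor chains, Ifngr1 was highest and Ifngr2 lowest in RFP- MHCIIlo cells, while both were lower in RFP+ than RFP- MHCIIhi cells. Ifngr1, the ligand-binding chain, had 39.9, 47.3, 47.3 and 40 CPM in RFP+ MHCIIlo libraries, against 61.7, 61.8, 73.8 and 70.1 CPM in RFP- MHCIIlo libraries. The MHCIIhi gate gave 31.6, 29.1, 32.2 and 31.2 CPM in RFP+ MHCIIhi libraries, against 33.4, 32.8, 39.8 and 42.9 CPM in RFP- MHCIIhi libraries. RFP- MHCIIlo libraries were again above all others, and the RFP difference was -0.62 ± 0.10 in MHCIIlo cells (SE, edgeR adjusted p = 9e-06) and -0.26 ± 0.10 in MHCIIhi cells (edgeR adjusted p = 0.029). The MHCIIhi call was lost without RFP- MHCIIhi replicates 3 or 4 or RFP+ MHCIIhi replicates 2 or 4, at -0.26 to -0.19. It was also lost at -0.24 without the filter on low counts. The gate differences were 0.49 ± 0.10 in RFP+ cells (SE, edgeR adjusted p = 0.00018) and 0.85 ± 0.09 in RFP- cells (edgeR adjusted p = 3.8e-08).

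Ifngr2, the signalling chain, had 94.7, 117, 119 and 111 CPM in RFP+ MHCIIlo libraries, against 79.1, 82.6, 86.2 and 92 CPM in RFP- MHCIIlo libraries. At high MHC class II it had 148, 133, 135 and 138 CPM in RFP+ MHCIIhi libraries, against 183, 183, 179 and 175 CPM in RFP- MHCIIhi libraries. The 4 RFP- MHCIIlo libraries were the lowest of all 16 and the 4 RFP- MHCIIhi libraries the highest. RFP+ minus RFP- was 0.38 ± 0.08 in MHCIIlo cells (SE, edgeR adjusted p = 0.0003) and -0.38 ± 0.08 in MHCIIhi cells (edgeR adjusted p = 0.00024), so it rose in RFP+ MHCIIlo cells and fell in RFP+ MHCIIhi cells. The gate differences were -0.32 ± 0.08 in RFP+ cells (SE, edgeR adjusted p = 0.0012) and -1.08 ± 0.08 in RFP- cells (edgeR adjusted p = 1.9e-11). The lambda receptor chain Ifnlr1, which is not on the list of 40, had 4.97, 4.88, 3.53 and 4.39 CPM in RFP+ MHCIIlo libraries, against 19.8, 21.1, 20.6 and 21 CPM in RFP- MHCIIlo libraries. In the other gate it had 2.18, 2.04, 2.91 and 3.09 CPM in RFP+ MHCIIhi libraries, against 2.32, 2.65, 3.22 and 2.53 CPM in RFP- MHCIIhi libraries, so the RFP- MHCIIlo libraries stood 4.64-fold above RFP+ MHCIIlo libraries on the means, and the MHCIIlo RFP difference was -2.22 ± 0.16 (SE, edgeR adjusted p = 6.6e-11).

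The transcription factors of the pathway were higher in RFP- MHCIIlo cells except Irf1. Stat2 (ENSMUSG00000040033, chr10:128270559-128292849, plus strand), a subunit of the ISRE-binding complex, had 84.1, 96, 95.8 and 96.8 CPM in RFP+ MHCIIlo libraries, against 186, 192, 213 and 164 CPM in RFP- MHCIIlo libraries. The other gate gave 58.1, 63.4, 67.2 and 62.9 CPM in RFP+ MHCIIhi libraries, against 47.6, 50, 54.1 and 46.8 CPM in RFP- MHCIIhi libraries. No 2 populations overlapped for Stat2, in the order RFP- MHCIIlo, RFP+ MHCIIlo, RFP+ MHCIIhi, RFP- MHCIIhi. With RFP the log2 difference was -1.02 ± 0.08 in MHCIIlo cells (SE, edgeR adjusted p = 5e-10) and 0.34 ± 0.08 in MHCIIhi cells (edgeR adjusted p = 0.0018). Irf9, the DNA-binding subunit, followed the same order at 69 ± 3.14 CPM in RFP+ MHCIIlo, 117 ± 8.44 CPM in RFP- MHCIIlo, 44 ± 0.788 CPM in RFP+ MHCIIhi cells, and 30.1 ± 1.82 CPM for RFP- MHCIIhi (SD, n = 4 libraries each). Gates differed for Stat2 by 0.57 ± 0.08 in RFP+ cells (SE, edgeR adjusted p = 5e-06) and 1.93 ± 0.09 in RFP- cells (edgeR adjusted p = 4.4e-15).

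Irf7 (ENSMUSG00000025498, chr7:141262706-141266481, minus strand), the factor that amplifies alpha interferon production, had 128, 87.2, 92.4 and 115 CPM in RFP+ MHCIIlo libraries, against 138, 130, 137 and 137 CPM in RFP- MHCIIlo libraries. In MHCIIhi cells there were 52.8, 46.1, 45.3 and 48.6 CPM in RFP+ MHCIIhi libraries, against 22.3, 21.1, 20.1 and 16.9 CPM in RFP- MHCIIhi libraries. Every MHCIIlo library exceeded every MHCIIhi library, and RFP+ MHCIIlo replicates 1 and 4 were the highest of that population. Between labels the log2 difference was -0.36 ± 0.10 in MHCIIlo cells (SE, edgeR adjusted p = 0.0054) and 1.26 ± 0.11 in MHCIIhi cells (edgeR adjusted p = 1.7e-09). Between gates it was 1.13 ± 0.10 in RFP+ cells (SE, edgeR adjusted p = 3.3e-09) and 2.75 ± 0.11 in RFP- cells (edgeR adjusted p = 9.8e-16), the widest of the transcription factors. Irf7 overlaps Phrf1 on the opposite strand, and the strand setting of the counting is not given in the sources used here.

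Irf1 (ENSMUSG00000018899, chr11:53770014-53778374, plus strand), a factor known to be induced by gamma interferon and the one shown above with GAS-like letters alone, had 57.3, 64.2, 73.3 and 91.5 CPM in RFP+ MHCIIlo libraries, against 79.7, 88, 75.6 and 96.4 CPM in RFP- MHCIIlo libraries. Its values at high MHC class II were 134, 136, 152 and 154 CPM in RFP+ MHCIIhi libraries, against 88.9, 94.5, 102 and 104 CPM in RFP- MHCIIhi libraries. Irf1 was thus highest in RFP+ MHCIIhi libraries, with no overlap with any other population. The RFP difference was -0.24 ± 0.11 in MHCIIlo cells (SE, edgeR adjusted p = 0.074) and 0.56 ± 0.11 in MHCIIhi cells (edgeR adjusted p = 0.00016), and the MHCIIlo value passed at -0.39 to -0.28 without any of 7 libraries (RFP+ MHCIIlo replicate 4, RFP- MHCIIlo replicate 3, RFP+ MHCIIhi replicates 1 and 2, RFP- MHCIIhi replicates 1, 3 and 4). The gate differences were -1.0 ± 0.11 in RFP+ cells (SE, edgeR adjusted p = 6.4e-08) and -0.20 ± 0.11 in RFP- cells (edgeR adjusted p = 0.12). Without RFP+ MHCIIlo replicates 1 and 4 both values not called here passed, at -0.30 between MHCIIlo populations (edgeR adjusted p = 0.021) and -0.20 between RFP- gates (edgeR adjusted p = 0.039). The RFP- gate difference also passed at -0.31 to -0.21 with RLE or upper-quartile scaling, with DESeq2, without the filter on low counts and with the 2 populations fitted alone. Irf1 overlaps Gm17334 on the opposite strand.

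The 3 sensors of nucleic acid were all lower in RFP+ than in RFP- MHCIIlo cells, against a background of 22.7% of all genes lower. Zbp1, a sensor of left-handed nucleic acid helices, averaged 58.7 ± 5.33 CPM in the RFP+ MHCIIlo libraries, against 121 ± 9.36 CPM in the RFP- ones (SD, n = 4 each). In MHCIIhi cells it averaged 83.4 ± 6.34 CPM with RFP, against 37.7 ± 3.04 CPM without, a log2 difference of 1.15 ± 0.09 (SE, edgeR adjusted p = 1.5e-10). Ifih1, the sensor of long double-stranded RNA also called MDA5, moved the same ways, with -0.41 ± 0.09 (SE, edgeR adjusted p = 0.00062) in MHCIIlo and 0.65 ± 0.09 (SE, edgeR adjusted p = 3.1e-06) in MHCIIhi cells. For Ifih1 the libraries of the MHCIIlo populations overlapped. Dhx58, the related helicase LGP2, fell by a log2 difference of -1.05 ± 0.10 (SE, edgeR adjusted p = 1.3e-08) in RFP+ MHCIIlo cells and did not pass in MHCIIhi cells (-0.13 ± 0.10 SE, edgeR adjusted p = 0.3). The third helicase of this kind, Ddx58 (RIG-I), is outside the list of 40 and was chosen after its values were seen. It had 65.8 ± 7.35 CPM in RFP+ MHCIIlo, 175 ± 13.2 CPM in RFP- MHCIIlo, 31.5 ± 3.52 CPM in RFP+ MHCIIhi cells, and 36.5 ± 1.92 CPM for RFP- MHCIIhi (SD, n = 4 each).

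Isg15 and Usp18 act on the same protein modification and had different orders of the populations. Isg15 (ENSMUSG00000035692, chr4:156199424-156200818, minus strand), a ubiquitin-like protein attached to targets, had 36.4, 31.8, 29.6 and 37.8 CPM in RFP+ MHCIIlo libraries, against 81.6, 72.5, 76.8 and 56.5 CPM in RFP- MHCIIlo libraries. The MHCIIhi gate gave 25.5, 23.2, 25.5 and 29.5 CPM in RFP+ MHCIIhi libraries, against 13.7, 14.3, 12 and 14.3 CPM in RFP- MHCIIhi libraries. The 4 populations did not overlap for Isg15, with RFP- MHCIIlo highest and RFP- MHCIIhi lowest. RFP+ minus RFP- was -1.08 ± 0.11 in MHCIIlo cells (SE, edgeR adjusted p = 1.5e-08) and 0.93 ± 0.11 in MHCIIhi cells (edgeR adjusted p = 4.6e-07), and the gate differences were 0.39 ± 0.11 in RFP+ cells (SE, edgeR adjusted p = 0.0049) and 2.40 ± 0.11 in RFP- cells (edgeR adjusted p = 1.3e-14). Without RFP+ MHCIIlo replicates 1 and 4 the RFP+ gate difference was 0.24 and no longer passed (edgeR adjusted p = 0.13).

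Usp18 (ENSMUSG00000030107, chr6:121245906-121270917, plus strand), which removes Isg15 from proteins and blocks signalling at Ifnar2, had 92.2, 82.3, 81.6 and 70.9 CPM in RFP+ MHCIIlo libraries, against 102, 112, 130 and 113 CPM in RFP- MHCIIlo libraries. At high MHC class II it had 147, 163, 182 and 189 CPM in RFP+ MHCIIhi libraries, against 164, 153, 145 and 141 CPM in RFP- MHCIIhi libraries. It was higher in MHCIIhi than MHCIIlo libraries of the same label without overlap. With RFP the log2 difference was -0.49 ± 0.10 in MHCIIlo cells (SE, edgeR adjusted p = 0.00018) and 0.17 ± 0.09 in MHCIIhi cells (edgeR adjusted p = 0.13), and the gate differences were -1.06 ± 0.10 in RFP+ cells (SE, edgeR adjusted p = 2.5e-09) and -0.40 ± 0.09 in RFP- cells (edgeR adjusted p = 0.00071).

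The Ifit genes lie on chromosome 19 and encode proteins that bind foreign RNA. Ifit1 (ENSMUSG00000034459, chr19:34640871-34650009, plus strand) had 85.8, 75.2, 96.2 and 87.2 CPM in RFP+ MHCIIlo libraries, against 126, 132, 136 and 121 CPM in RFP- MHCIIlo libraries. In the other gate it had 159, 154, 169 and 168 CPM in RFP+ MHCIIhi libraries, against 69.3, 64.2, 76.9 and 66.9 CPM in RFP- MHCIIhi libraries. Every RFP+ MHCIIhi library exceeded every other library, and every RFP- MHCIIhi library was below all RFP- MHCIIlo libraries. Between labels the log2 difference was -0.58 ± 0.08 in MHCIIlo cells (SE, edgeR adjusted p = 2.1e-06) and 1.23 ± 0.08 in MHCIIhi cells (edgeR adjusted p = 1.5e-11), and the gate differences were -0.91 ± 0.08 in RFP+ cells (SE, edgeR adjusted p = 1.7e-09) and 0.90 ± 0.08 in RFP- cells (edgeR adjusted p = 1e-09). Ifit3 (ENSMUSG00000074896, chr19:34583531-34588731, plus strand) had 21.3, 19.1, 20.6 and 31 CPM in RFP+ MHCIIlo libraries, against 79.3, 65.3, 86 and 81.3 CPM in RFP- MHCIIlo libraries. The other gate gave 16, 13.5, 13.7 and 15.1 CPM in RFP+ MHCIIhi libraries, against 13.3, 12.3, 12.4 and 11.3 CPM in RFP- MHCIIhi libraries. All 4 RFP- MHCIIlo libraries lay above the other 12.

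For Ifit3 the RFP difference was -1.75 ± 0.12 in MHCIIlo cells (SE, edgeR adjusted p = 2.8e-11) and 0.24 ± 0.13 in MHCIIhi cells (edgeR adjusted p = 0.14), and the gate differences were 0.67 ± 0.13 in RFP+ cells (SE, edgeR adjusted p = 0.00011) and 2.66 ± 0.13 in RFP- cells (edgeR adjusted p = 1.1e-14). Ifit3b, whose printed promoter stretch is the same as that of Ifit3, had 5.21 ± 1.36 CPM in RFP+ MHCIIlo, 22.9 ± 4.72 CPM in RFP- MHCIIlo, 5.39 ± 0.801 CPM in RFP+ MHCIIhi cells, and 4.13 ± 0.681 CPM for RFP- MHCIIhi (SD, n = 4 each). Over 50-base stretches of their transcripts 51.2% of Ifit3 and 45% of Ifit3b also occur in another gene, so the split of reads between them is uncertain. Ifit2 had another order, with 3.57, 5.24, 4.36 and 4.31 CPM in RFP+ MHCIIlo libraries, against 17.1, 15.8, 23.6 and 14.7 CPM in RFP- MHCIIlo libraries. In MHCIIhi cells there were 19.9, 19, 24 and 21.5 CPM in RFP+ MHCIIhi libraries, against 22.6, 22.5, 23.8 and 21.8 CPM in RFP- MHCIIhi libraries. The RFP+ MHCIIlo libraries lay below all 12 others. Against RFP+ MHCIIhi cells the log2 difference was -2.27 ± 0.16 (SE, edgeR adjusted p = 2.6e-11), the largest fall of the list in that comparison.

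**Figure D5:**
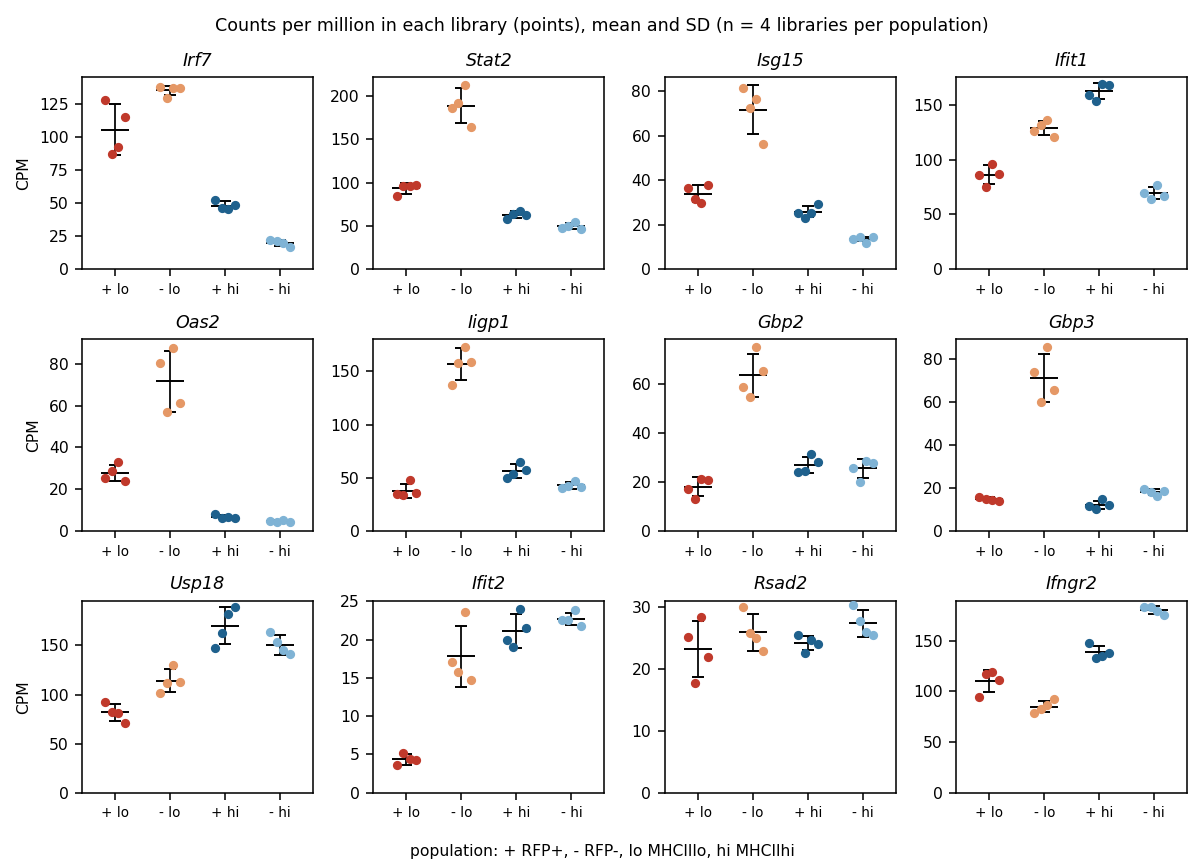
CPM of 12 genes of the list in each library (points), with mean and SD (bars, n = 4 libraries), for RFP+ MHCIIlo, RFP- MHCIIlo, RFP+ MHCIIhi and RFP- MHCIIhi cells from left to right. Irf7, Stat2, Isg15, Oas2, Iigp1, Gbp2 and Gbp3 are highest in RFP- MHCIIlo cells, Ifit1 in RFP+ MHCIIhi cells, while the ranges of Rsad2 run into each other.

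The Oas family holds the oligoadenylate synthetases, whose product activates an enzyme that degrades RNA, and related proteins. Oas2 had the widest difference of the list between RFP- gates, with 25.5, 28.5, 32.8 and 23.8 CPM in RFP+ MHCIIlo libraries, against 80.3, 57.1, 87.5 and 61.4 CPM in RFP- MHCIIlo libraries. Its values at high MHC class II were 8.11, 6.42, 6.69 and 6.39 CPM in RFP+ MHCIIhi libraries, against 4.59, 4.13, 5.45 and 4.25 CPM in RFP- MHCIIhi libraries. On the means RFP- MHCIIlo cells were 15.5-fold above RFP- MHCIIhi cells, at a log2 difference of 3.96 ± 0.15 (SE, edgeR adjusted p = 3.4e-16), and RFP+ MHCIIlo cells were 4.01-fold above RFP+ MHCIIhi cells. Oasl2 (ENSMUSG00000029561, chr5:114896936-114912234, plus strand), an Oas-like protein with ubiquitin-like domains, had 315, 312, 348 and 343 CPM in RFP+ MHCIIlo libraries, against 643, 670, 669 and 518 CPM in RFP- MHCIIlo libraries. The MHCIIhi gate gave 431, 378, 358 and 372 CPM in RFP+ MHCIIhi libraries, against 219, 220, 235 and 198 CPM in RFP- MHCIIhi libraries. RFP- MHCIIlo libraries lay above all others and RFP- MHCIIhi libraries below all others. The RFP difference was -0.92 ± 0.09 in MHCIIlo cells (SE, edgeR adjusted p = 7.4e-09) and 0.82 ± 0.09 in MHCIIhi cells (edgeR adjusted p = 6.4e-08), and the gate differences were -0.22 ± 0.09 in RFP+ cells (SE, edgeR adjusted p = 0.036) and 1.52 ± 0.09 in RFP- cells (edgeR adjusted p = 6.6e-13). The RFP+ gate call was lost at -0.22 to -0.19 without RFP+ MHCIIlo replicates 1 or 2 or RFP+ MHCIIhi replicate 1, and at -0.23 without RFP+ MHCIIlo replicates 1 and 4 together.

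Oas1a (ENSMUSG00000052776, chr5:120896256-120907521, minus strand) had 18.9, 12.4, 18.2 and 14.7 CPM in RFP+ MHCIIlo libraries, against 34.8, 32.8, 38.6 and 26.4 CPM in RFP- MHCIIlo libraries. At high MHC class II it had 13.8, 14.6, 16.1 and 18.2 CPM in RFP+ MHCIIhi libraries, against 11.8, 12.6, 12.3 and 12.7 CPM in RFP- MHCIIhi libraries. RFP- MHCIIlo libraries again lay above the rest. RFP+ minus RFP- was -1.04 ± 0.13 in MHCIIlo cells (SE, edgeR adjusted p = 5.8e-07) and 0.35 ± 0.13 in MHCIIhi cells (edgeR adjusted p = 0.037), and the MHCIIhi call was lost at 0.27 to 0.36 without any of 6 libraries (RFP+ MHCIIhi replicates 3 and 4, each RFP- MHCIIhi replicate). The MHCIIhi call was also lost at 0.33 with RLE and at 0.26 with upper-quartile scaling. Gates differed by 0.03 ± 0.14 in RFP+ cells (SE, edgeR adjusted p = 0.86) and 1.42 ± 0.13 in RFP- cells (edgeR adjusted p = 1.5e-09). Over 50-base stretches 57.6% of Oas1a also occurs in Oas1g, so these reads are uncertain between the 2 genes. Oas3 fell in RFP+ MHCIIlo cells (-0.74 ± 0.10 SE, edgeR adjusted p = 1.7e-06) and rose in RFP+ MHCIIhi cells (0.67 ± 0.10 SE, edgeR adjusted p = 1.1e-05).

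Oasl1, an Oas-like protein known in mouse to hold back translation of Irf7, was the gene that rose most with RFP in both gates. It had 42.2, 51.4, 57.1 and 43.7 CPM in RFP+ MHCIIlo libraries, against 28.2, 30.1, 31.7 and 24.1 CPM in RFP- MHCIIlo libraries. In the other gate it had 96, 87.8, 90.9 and 93.2 CPM in RFP+ MHCIIhi libraries, against 37.9, 38.8, 41.9 and 31.3 CPM in RFP- MHCIIhi libraries. RFP+ libraries lay above RFP- libraries of the same gate without overlap. The log2 difference was 0.77 ± 0.11 in MHCIIlo cells (SE, edgeR adjusted p = 2.2e-06) and 1.30 ± 0.10 in MHCIIhi cells (edgeR adjusted p = 3e-10), and the difference of the differences was -0.53 ± 0.15 (SE, edgeR adjusted p = 0.0074).

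Among the other effectors, 8 of 10 fell and 1, Ifi27, rose in RFP+ MHCIIlo cells, against a background of 22.7% lower and 28.9% higher. In RFP+ MHCIIhi cells 3 rose and none fell, and a share of 3 in 10 is near the background of 23.8%. Bst2 (ENSMUSG00000046718, chr8:71534255-71537456, minus strand), the tethering protein that holds enveloped viruses at the cell surface, had 43.2, 49, 44.8 and 41.3 CPM in RFP+ MHCIIlo libraries, against 86.7, 70.7, 99 and 96.2 CPM in RFP- MHCIIlo libraries. The other gate gave 45, 35.9, 41.6 and 52.2 CPM in RFP+ MHCIIhi libraries, against 36.8, 39.6, 40.7 and 40.8 CPM in RFP- MHCIIhi libraries. RFP- MHCIIlo libraries did not overlap with any other. With RFP the log2 difference was -0.99 ± 0.11 in MHCIIlo cells (SE, edgeR adjusted p = 6e-08) and 0.14 ± 0.11 in MHCIIhi cells (edgeR adjusted p = 0.29), and the gate differences were 0.03 ± 0.11 in RFP+ cells (SE, edgeR adjusted p = 0.83) and 1.16 ± 0.11 in RFP- cells (edgeR adjusted p = 1.4e-09). Ifi44 had the largest fall of this role in RFP+ MHCIIlo cells, at -2.25 ± 0.11 (SE, edgeR adjusted p = 4.2e-14), where it averaged 28.3 ± 4.63 CPM, against 135 ± 14 CPM in RFP- MHCIIlo cells (SD, n = 4 each). Rtp4, a Golgi chaperone that also limits viral replication, was 9.32-fold higher in RFP- MHCIIlo than RFP- MHCIIhi cells on the means, at a log2 difference of 3.21 ± 0.12 (SE, edgeR adjusted p = 3.9e-16). Mx1 and Mx2, genes of the family of dynamin-like antiviral GTPases, fell in RFP+ MHCIIlo cells, at -1.30 ± 0.12 (SE, edgeR adjusted p = 2.3e-09) for Mx1 and -1.71 ± 0.15 (SE, edgeR adjusted p = 1.2e-09) for Mx2. Mx2 is annotated as a polymorphic pseudogene, and these RNA levels do not show that a working Mx protein was made.

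Rsad2 (ENSMUSG00000020641, chr12:26442746-26456452, minus strand), the antiviral enzyme viperin, had 25.1, 17.7, 28.3 and 21.9 CPM in RFP+ MHCIIlo libraries, against 30, 25.8, 24.9 and 22.9 CPM in RFP- MHCIIlo libraries. In MHCIIhi cells there were 25.4, 22.6, 24.6 and 24 CPM in RFP+ MHCIIhi libraries, against 30.3, 27.7, 25.9 and 25.4 CPM in RFP- MHCIIhi libraries. The RFP+ MHCIIlo range held most of the values of the other populations, and the MHCIIhi populations met at 25.4 CPM. Between labels the log2 difference was -0.15 ± 0.12 in MHCIIlo cells (SE, edgeR adjusted p = 0.3) and -0.18 ± 0.11 in MHCIIhi cells (edgeR adjusted p = 0.2), and the gate differences were -0.05 ± 0.12 in RFP+ cells (SE, edgeR adjusted p = 0.72) and -0.08 ± 0.11 in RFP- cells (edgeR adjusted p = 0.53), and none of these passed. Ifi27 (ENSMUSG00000064215, chr12:103434211-103440239, plus strand), a mitochondrial protein, had 99.2, 109, 110 and 114 CPM in RFP+ MHCIIlo libraries, against 90.9, 105, 82.7 and 89.5 CPM in RFP- MHCIIlo libraries. Its values at high MHC class II were 93.6, 79.1, 84.1 and 98.7 CPM in RFP+ MHCIIhi libraries, against 72.2, 72.7, 68.4 and 74.9 CPM in RFP- MHCIIhi libraries. The RFP difference was 0.23 ± 0.09 in MHCIIlo cells (SE, edgeR adjusted p = 0.027) and 0.30 ± 0.08 in MHCIIhi cells (edgeR adjusted p = 0.0054). The MHCIIlo call was lost at 0.18 to 0.22 without any of 11 libraries, namely RFP+ MHCIIlo replicates 2, 3 and 4, RFP- MHCIIlo replicates 1, 3 and 4, RFP+ MHCIIhi replicates 1 and 2, and RFP- MHCIIhi replicates 1, 3 and 4. That call was also lost at 0.22 without the filter on low counts and at 0.20 with the 2 populations fitted alone. The gate differences were 0.28 ± 0.08 in RFP+ cells (SE, edgeR adjusted p = 0.0067) and 0.35 ± 0.09 in RFP- cells (edgeR adjusted p = 0.00081), and the RFP+ one was 0.20 without RFP+ MHCIIhi replicate 2 (edgeR adjusted p = 0.069). Without the filter on low counts the RFP+ gate difference was 0.22 and did not pass (edgeR adjusted p = 0.06).

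The immunity-related GTPases were all lower in RFP+ than RFP- MHCIIlo cells, against a background of 22.7% of all genes lower. Iigp1 (ENSMUSG00000054072, chr18:60376027-60392634, plus strand), an effector that coats parasite vacuoles, had 34.5, 33.4, 47.5 and 35.8 CPM in RFP+ MHCIIlo libraries, against 137, 158, 173 and 159 CPM in RFP- MHCIIlo libraries. The MHCIIhi gate gave 49.4, 53.4, 65.2 and 57.2 CPM in RFP+ MHCIIhi libraries, against 40.8, 41.9, 47.4 and 41.6 CPM in RFP- MHCIIhi libraries. The RFP- MHCIIlo libraries lay above all others without overlap. RFP+ minus RFP- was -2.05 ± 0.11 in MHCIIlo cells (SE, edgeR adjusted p = 2.6e-13) and 0.40 ± 0.11 in MHCIIhi cells (edgeR adjusted p = 0.0036), and the gate differences were -0.58 ± 0.11 in RFP+ cells (SE, edgeR adjusted p = 9.4e-05) and 1.87 ± 0.11 in RFP- cells (edgeR adjusted p = 3e-13). Irgm1 (ENSMUSG00000046879, chr11:48861968-48871683, minus strand), a regulator that guards the host's own membranes, had 31.6, 27.7, 42.7 and 46.9 CPM in RFP+ MHCIIlo libraries, against 79.3, 83.8, 79.7 and 81.2 CPM in RFP- MHCIIlo libraries. At high MHC class II it had 33.8, 33, 34.4 and 38.1 CPM in RFP+ MHCIIhi libraries, against 21.4, 23.9, 29.6 and 24.7 CPM in RFP- MHCIIhi libraries. RFP+ MHCIIlo and RFP+ MHCIIhi libraries overlapped for Irgm1, and RFP- MHCIIlo libraries lay above all others. With RFP the log2 difference was -1.11 ± 0.12 in MHCIIlo cells (SE, edgeR adjusted p = 6e-08) and 0.49 ± 0.12 in MHCIIhi cells (edgeR adjusted p = 0.0023), and the gate differences were 0.10 ± 0.12 in RFP+ cells (SE, edgeR adjusted p = 0.49) and 1.71 ± 0.12 in RFP- cells (edgeR adjusted p = 2e-11).

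Igtp (ENSMUSG00000078853, chr11:58199556-58207591, plus strand), another regulator of the family, had 44.2, 45, 54 and 59.1 CPM in RFP+ MHCIIlo libraries, against 75.2, 68.6, 80.9 and 65.7 CPM in RFP- MHCIIlo libraries. In the other gate it had 86.4, 84, 113 and 101 CPM in RFP+ MHCIIhi libraries, against 61.6, 58.5, 71 and 69.2 CPM in RFP- MHCIIhi libraries. It was highest in RFP+ MHCIIhi libraries, with no overlap with any other population. Between labels the log2 difference was -0.52 ± 0.11 in MHCIIlo cells (SE, edgeR adjusted p = 0.00038) and 0.57 ± 0.11 in MHCIIhi cells (edgeR adjusted p = 0.00012), and the gate differences were -0.92 ± 0.11 in RFP+ cells (SE, edgeR adjusted p = 1.6e-07) and 0.16 ± 0.11 in RFP- cells (edgeR adjusted p = 0.19). Irgm2, whose promoter stretch differs from that of Igtp at 2 of 51 bases, was highest in RFP- MHCIIlo cells instead, at 37.7 ± 3.81 CPM in RFP+ MHCIIlo, 83.9 ± 8.26 CPM in RFP- MHCIIlo, 35.4 ± 4.76 CPM in RFP+ MHCIIhi cells, and 25.6 ± 2.32 CPM for RFP- MHCIIhi (SD, n = 4 each). The 2 genes overlap on the same strand, and 11.8% of the 50-base stretches of Igtp occur in Irgm2. Tgtp1 averaged 2.85 ± 0.687 CPM in RFP+ MHCIIlo, 10.9 ± 1.6 CPM in RFP- MHCIIlo, 2.24 ± 0.365 CPM in RFP+ MHCIIhi cells, and 3.79 ± 0.511 CPM for RFP- MHCIIhi, and 79.4% of its 50-base stretches occur in Tgtp2, so its reads are uncertain.

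All 3 guanylate-binding proteins fell in RFP+ MHCIIlo cells, with a median log2 difference of -1.81, against a background of 22.7% of all genes lower. Gbp2 (ENSMUSG00000028270, chr3:142620602-142638008, plus strand) had 17, 13.2, 21.3 and 20.8 CPM in RFP+ MHCIIlo libraries, against 59, 54.7, 75.2 and 65.4 CPM in RFP- MHCIIlo libraries. The other gate gave 24.2, 24.7, 31.3 and 28.1 CPM in RFP+ MHCIIhi libraries, against 25.9, 20.1, 28.5 and 27.7 CPM in RFP- MHCIIhi libraries. The RFP- MHCIIlo libraries were again above all others. The RFP difference was -1.81 ± 0.14 in MHCIIlo cells (SE, edgeR adjusted p = 1.7e-10) and 0.09 ± 0.13 in MHCIIhi cells (edgeR adjusted p = 0.64), and the gate differences were -0.58 ± 0.14 in RFP+ cells (SE, edgeR adjusted p = 0.0014) and 1.32 ± 0.13 in RFP- cells (edgeR adjusted p = 5.9e-09). Gbp3 had 15.8, 15.1, 14.4 and 13.8 CPM in RFP+ MHCIIlo libraries, against 73.8, 60, 85.4 and 65.7 CPM in RFP- MHCIIlo libraries. In MHCIIhi cells there were 11.8, 10.4, 14.8 and 11.9 CPM in RFP+ MHCIIhi libraries, against 19.5, 18.1, 16.3 and 18.7 CPM in RFP- MHCIIhi libraries. It was 4.82-fold lower in RFP+ than RFP- MHCIIlo cells on the means, at a log2 difference of -2.27 ± 0.12 (SE, edgeR adjusted p = 1.7e-13), the largest fall of the list, and it also fell in RFP+ MHCIIhi cells (-0.57 ± 0.12 SE, edgeR adjusted p = 0.00033). Gbp7 fell in both gates, at -1.64 ± 0.11 (SE, edgeR adjusted p = 7.9e-12) in MHCIIlo and -0.46 ± 0.10 (SE, edgeR adjusted p = 0.00063) in MHCIIhi cells.

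Levels per length put the abundant genes in a different order in each population. Per kb of exon, the highest of the list were Ifi27 at 73.7 ± 4.29 RPKM and Oasl2 at 51.7 ± 2.92 RPKM in RFP+ MHCIIlo cells, and Oasl2 at 98 ± 11.3 RPKM and Bst2 at 97.6 ± 14.2 RPKM in RFP- MHCIIlo cells (RPKM, here CPM per kb of union exons, SD, n = 4). Ifit1 at 61.1 ± 2.64 RPKM and Usp18 at 60.9 ± 6.79 RPKM led in RFP+ MHCIIhi cells, and Usp18 at 54 ± 3.62 RPKM and Ifi27 at 49.1 ± 1.84 RPKM in RFP- MHCIIhi cells. In RFP- MHCIIlo and RFP+ MHCIIhi cells the leading pair differed by less than 1 SD. With the longest transcript as the length, 23 of the 40 levels moved by more than 1 SD, and the lead in RFP+ MHCIIhi cells passed to Oasl2 at 123 RPKM and Usp18 at 96 RPKM, with Ifit1 the fifth at 61.1 RPKM.

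Genes of the pathway outside the list of 40 were taken from a second list of 83. Of 25 other type I interferon targets, 21 were lower and 1 higher in RFP+ than RFP- MHCIIlo cells, against a background of 22.7% lower and 28.9% higher. In RFP+ MHCIIhi cells 23 were higher and none lower than in RFP- MHCIIhi cells, against a background of 23.8% higher and 21.2% lower. For Ifi204, a DNA-sensing protein, the difference of the differences was -2.81 ± 0.22 (SE, edgeR adjusted p = 8.6e-10), the lowest among pathway genes outside the list with a mean of at least 5 CPM. Of 13 gamma interferon targets tested outside the list of 40, 7 were lower and 3 higher in RFP+ than RFP- MHCIIlo cells, and 4 were lower and 4 higher in RFP+ than RFP- MHCIIhi cells. Between RFP- gates, 8 were lower and 3 higher in MHCIIlo than in MHCIIhi cells, against a background of 35.6% lower and 33.5% higher, while 24 of the 25 type I targets were higher and 1 lower. Between RFP+ gates, 11 of the 13 gamma targets were lower and 1 higher, against a background of 28.1% lower and 27.5% higher. There 12 of the 25 type I targets were higher and 6 lower. Cxcl10, a chemokine that attracts activated T cells, had 55.2, 87.2, 88.8 and 143 CPM in RFP+ MHCIIlo libraries, against 135, 136, 209 and 164 CPM in RFP- MHCIIlo libraries. Its values at high MHC class II were 462, 464, 569 and 528 CPM in RFP+ MHCIIhi libraries, against 748, 746, 694 and 673 CPM in RFP- MHCIIhi libraries. All MHCIIhi libraries lay above all MHCIIlo libraries, with gate differences of -2.43 ± 0.19 in RFP+ cells (SE, edgeR adjusted p = 1.6e-10) and -2.15 ± 0.18 in RFP- cells (edgeR adjusted p = 3.4e-10). Gbp4, a GBP outside the list of 40 and named after its values were seen, shared this direction, at a log2 difference of -2.73 ± 0.12 (SE, edgeR adjusted p = 5.7e-15) in RFP- cells.

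Of 5 inhibitors of the pathway, 3 were higher and 1 lower in RFP+ than RFP- MHCIIlo cells, against a background of 28.9% higher and 22.7% lower. In RFP+ MHCIIhi cells 4 were higher than in RFP- MHCIIhi cells, where 23.8% of all genes were. Socs1, the inhibitor of Janus kinases, had 7.02, 10.1, 12.7 and 10.1 CPM in RFP+ MHCIIlo libraries, against 6.8, 5.77, 7.42 and 9.46 CPM in RFP- MHCIIlo libraries. The MHCIIhi gate gave 19.6, 20.4, 19.1 and 23.5 CPM in RFP+ MHCIIhi libraries, against 11.6, 11.2, 16.2 and 13.8 CPM in RFP- MHCIIhi libraries. For Socs1 the log2 difference with RFP was 0.44 ± 0.18 in MHCIIlo cells (SE, edgeR adjusted p = 0.047) and 0.65 ± 0.16 in MHCIIhi cells (edgeR adjusted p = 0.0015). The next genes had the largest called differences in a comparison among pathway genes outside the list with a mean of at least 5 CPM. Ptpn6, the phosphatase SHP-1, had the largest rise in RFP+ MHCIIlo cells, at 1.10 ± 0.11 (SE, edgeR adjusted p = 1.3e-08), and Ifnlr1 the one with the largest fall. Tlr3, a sensor of double-stranded RNA, rose most in RFP+ MHCIIhi cells (1.43 ± 0.11 SE, edgeR adjusted p = 1.9e-10), and Gbp2b fell most (-1.08 ± 0.13 SE, edgeR adjusted p = 3.4e-07). Tlr9, a sensor of DNA, was lowest in MHCIIlo relative to MHCIIhi cells, at -3.05 ± 0.20 in RFP+ cells (SE, edgeR adjusted p = 1.6e-11) and -3.82 ± 0.21 in RFP- cells (edgeR adjusted p = 1.3e-13), and Oas1g was highest in RFP- MHCIIlo relative to RFP- MHCIIhi cells (3.10 ± 0.18 SE, edgeR adjusted p = 2.8e-13). Ido1, which degrades tryptophan, had the largest positive difference of the differences, at 1.89 ± 0.33 (SE, edgeR adjusted p = 0.00011).

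Markers of other cell types moved with the populations. Mesenchymal markers (7 genes) summed to 53.9 to 171 CPM in RFP+ MHCIIlo, 426 to 967 in RFP- MHCIIlo, 120 to 139 in RFP+ MHCIIhi and 154 to 160 in RFP- MHCIIhi libraries. Endothelial markers (7 genes) summed to 29.8 to 47.1 CPM in RFP+ MHCIIlo, 51.9 to 80.5 in RFP- MHCIIlo, 34 to 38.5 in RFP+ MHCIIhi and 43.6 to 46.7 in RFP- MHCIIhi libraries. Both sums were highest in the population with the highest interferon-stimulated genes. So were 2 of the medullary epithelial markers, the keratins Krt5 and Krt14. Krt5 averaged 470 ± 9.13 CPM in RFP+ MHCIIlo, 1342 ± 190 CPM in RFP- MHCIIlo, 269 ± 28.4 CPM in RFP+ MHCIIhi cells, and 189 ± 27.7 CPM for RFP- MHCIIhi, and Krt14 averaged 97.5 ± 9.07, 437 ± 64.4, 116 ± 11.6 and 103 ± 14.7 CPM in the same order (SD, n = 4 each). Myeloid and dendritic markers (10 genes) summed to 235 to 318, 155 to 194, 657 to 678 and 465 to 543 CPM in the 4 populations in the same order, and B cell markers (6 genes) to 31.6 to 37.8, 13.8 to 17.5, 41.1 to 46.4 and 29.4 to 32.8. Plasmacytoid dendritic cell markers (6 genes) summed to 226 to 299, 232 to 254, 335 to 370 and 256 to 278, and cortical epithelial markers (5 genes) to 277 to 346, 860 to 1044, 487 to 687 and 1587 to 2879. No marker list had a gene at 0 in every library of a population. Their part in the levels of interferon-stimulated genes was not tested.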

How the data were processed

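Poly(A) RNA from 16 sorted samples was sequenced, and the authors deposited 1 file of raw counts per gene and library. STAR, DESeq2 and GRCm38 are named in the submitters' processing notes, without versions; no source used here gives the annotation release or whether counting used strand. Genes were named from GENCODE M21 (GRCm38), which gave a symbol to 42548 of 43432 identifiers; the 884 others held 0.0976% of reads. Library totals were 7.93 to 19.46 M (median 13.28 M).

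Counts were filtered with filterByExpr (minimum count 10, minimum total 15), scaled by TMM, and tested with edgeR 4.0.16 in R 4.3.3 by the quasi-likelihood test, with 1 mean per population, all 16 libraries in 1 fit and Benjamini-Hochberg adjustment over 19617 genes at a threshold of 0.05. The standard error of a log2 difference was taken from its F statistic. CPM used TMM-scaled library sizes, RPKM divided CPM by the union of exons in kb, and folds are ratios of mean CPM. The procedure was tested on simulated data. Within a population each replicate is a separate pool of mice, and the p-values rest on the spread between these pools. The sources used here do not say whether libraries of 1 number from different populations came from the same pool. The main fit treats them as independent. Libraries of 1 population differed by 2.99 to 32.7 chi-square units per degree of freedom over 24 pairs, so none was taken as a duplicate.

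Per-library values were given for 20 genes. In each comparison the 2 genes per direction with the largest called difference and a mean of at least 5 CPM were added, with 1 gene per direction outside the list of 40. 1 gene of the list of 83 is not reported singly here. The members and lists were chosen with earlier results of these data known. Alternatives were RLE and upper-quartile scaling, DESeq2 1.42.0, limma-voom (limma 3.58.1), both other filters, the replicate block, fits of the populations compared alone, each library left out, and RFP+ MHCIIlo replicates 1 and 4 left out together.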

Additional observations from a re-analysis of the deposited data

Results flagged for a closer look

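In 5 of the 160 combinations of gene and population, 1 library lay apart from the other 3 by Dixon's criterion, and chance gives about 1 in 20. Ifnar2 was at 44.9 CPM in RFP- MHCIIlo replicate 3, against 40.5 to 41.1 in the others. Stat2 was at 84.1 CPM in RFP+ MHCIIlo replicate 1, against 95.8 to 96.8. Irf7 was at 130 CPM in RFP- MHCIIlo replicate 2, against 137 to 138. Mx1 was at 39.2 CPM in RFP- MHCIIlo replicate 3, against 27.8 to 29.1. Mx2 was at 5.3 CPM in RFP+ MHCIIhi replicate 1, against 4.98 to 5.02.

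For 36 of the 40 genes, the RFP difference in MHCIIlo cells minus that in MHCIIhi cells passed the threshold of 0.05 by edgeR's test of the difference itself, and the values of 18 of them are given here. Among receptors this log2 value was -0.90 for Ifnar2, -0.36 for Ifngr1 and 0.76 for Ifngr2. The Ifngr1 call was lost at -0.36 to -0.30 without any of 8 libraries (RFP+ MHCIIlo replicates 1 and 4, RFP- MHCIIlo replicates 3 and 4, RFP+ MHCIIhi replicates 3 and 4, RFP- MHCIIhi replicates 1 and 2). It was also lost at -0.28 with upper-quartile scaling and at -0.24 without RFP+ MHCIIlo replicates 1 and 4 together. Among transcription factors it was -1.36 for Stat2, -1.62 for Irf7 and -0.81 for Irf1. Isg15 had -2.01 and Usp18 -0.66. Ifit1 had -1.81, Ifit3 -1.99 and Ifit3b -2.52. Oas1a had -1.39, Oasl2 -1.74 and Bst2 -1.13. Among the GTPases the value was -1.60 for Irgm1, -1.08 for Igtp, -2.45 for Iigp1 and -1.89 for Gbp2.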

How the results depend on the processing

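Of 2754 alternative values for 111 differences of named genes, 2638 kept their direction and side of the threshold, 62 lost the call, 25 gained it and 29 changed sign, none of them for a called difference. Of 90 called differences, 9 lost the call under some alternative. Counts of called genes stayed within 1.5 times the reported ones. The replicate numbers did not meet the criterion for pairing (every correlation of deviations over 0.1, where they were -0.0075 to 0.129), although 15 of 16 libraries correlated best with their own number, a hint from the data. With the replicate block, 36 of the 40 genes were lower and 3 higher in RFP+ than RFP- MHCIIlo cells, and Irf1 passed at -0.26 there and at -0.20 between RFP- gates. Upper-quartile scaling moved the median of all genes by -0.11 between RFP- gates, where the median of the 40 genes was then 1.26.

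The changes of sign were all near 0. Between RFP+ gates, Oas1a was -0.01 with RLE, 0.00 with upper-quartile scaling, -0.01 with DESeq2, -0.03 unfiltered, -0.04 without RFP+ MHCIIlo replicates 1 and 4, and -0.06 to 0.11 with 1 library left out. There Bst2 was -0.01 with RLE, 0.00 with upper-quartile scaling, -0.01 with DESeq2, -0.03 unfiltered, and -0.08 to 0.12 with 1 library left out. Ifnar1 was -0.02 unfiltered, -0.11 without RFP+ MHCIIlo replicates 1 and 4 and -0.02 to 0.09 with 1 library left out. With 1 library left out, Rsad2 was -0.18 to 0.03 and Irgm1 -0.03 to 0.19. Between MHCIIhi populations, Ifnar2 was -0.01 with upper-quartile scaling and Gbp2 -0.01 to 0.13 with 1 library left out. For the difference of the differences, Ifi27 was 0.01 with upper-quartile scaling, and Rsad2 0.00 unfiltered and -0.11 to 0.10 with 1 library left out. The cause was not tested. The looser ISRE-like letters GAAANNGAA matched 18 of 31 genes (58.1%, all genes 9.76%), and GAS-like letters with a spacer of 4 matched 6 (19.4%, all genes 8.01%). Depth limits the interferon genes, which had 0 to 176 reads per population.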
